A study of Mus musculus with 12 samples.

Results

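Type 1 immunity rests on CD4+ T cells that make interferon-γ (IFN-γ), and 9 genes of that program were followed here across 4 culture conditions, none of which was a Th1 culture: Ifng, Tbx21, Eomes, Runx3, Hlx, Il12rb1, Il12rb2, Ifngr1 and Ifngr2. They were taken by gene name from the scanner files of 12 microarrays and make up 9 of the 27597 genes named on the array. In all, 12 probes carry them: Ifng, Runx3 and Ifngr2 have a pair of probes each, and Hlx is listed under its older name Hlx1. All 9 genes passed the filter on dim probes (called well above background by the scanner software on at least 3 of the 12 arrays) and are among the 17925 genes tested.

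The cells were CD4+CD62L+ naive T cells of C57BL/6 mice, isolated magnetically from spleen and lymph nodes, activated with antibodies to CD3 and CD28, expanded on day 3 and harvested on day 5. Stimulated Th9 cultures were Th9 cultures that received anti-CD3 at 1 µg/ml for 6 h on day 5. Th9 cultures held IL-4 at 20 ng/ml, TGF-β at 2 ng/ml and antibody to IFN-γ. Th2 cultures held IL-4 and antibody to IFN-γ. Treg cultures held TGF-β and antibody to IL-4, with IL-2 added at expansion, and the protocol lists no antibody to IFN-γ for them. Each group had 3 arrays. Whether the arrays of a group stand for separate cultures or mice is not labelled, so each p-value speaks only for the spread among these samples, part of which may be technical. Th1 cultures also appear in the protocol and were not analysed here, so these data hold no fully polarised Th1 cell to set the levels against.

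In the type 1 program, dendritic cells supply IL-12, which binds a receptor made of the chains encoded by Il12rb1 and Il12rb2 and signals through STAT4. The T-box factor T-bet, encoded by Tbx21, acts with Runx3 and the homeobox factor Hlx to open the Ifng locus, and Eomes is a related T-box factor best known from CD8 T cells and NK cells. Secreted IFN-γ binds the receptor chains encoded by Ifngr1 and Ifngr2, and the signal then switches on guanylate-binding proteins, immunity-related GTPases and antigen-presentation genes. IL-4 and TGF-β, the cytokines of the Th9 culture, are both known to restrain this program.

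Windows just upstream of 3 members that rose together after stimulation are shown for orientation, read 5′ to 3′ on the gene's strand and taken from RefSeq's GRCm38.p6 promoter table, which held 8 of the 9 members. Each is the 250 bases before the annotated start. Capitals mark matches on either strand to GGAAA (a core bound by NFAT factors, which T cell receptor signals activate), TTCNNNGAA (the GAS element of STAT factors), GTGTGA (a T-box core), TGTGGT (a RUNX core) and TGANTCA (AP-1).
Ifng, chr10:118440796-118441045, plus strand: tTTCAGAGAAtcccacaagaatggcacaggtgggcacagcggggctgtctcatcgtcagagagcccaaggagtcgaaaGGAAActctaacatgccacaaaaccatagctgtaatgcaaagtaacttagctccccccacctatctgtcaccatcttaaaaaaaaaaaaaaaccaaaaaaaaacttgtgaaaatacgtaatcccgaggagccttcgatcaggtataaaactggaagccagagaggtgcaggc
Tbx21, chr11:97115332-97115581, minus strand: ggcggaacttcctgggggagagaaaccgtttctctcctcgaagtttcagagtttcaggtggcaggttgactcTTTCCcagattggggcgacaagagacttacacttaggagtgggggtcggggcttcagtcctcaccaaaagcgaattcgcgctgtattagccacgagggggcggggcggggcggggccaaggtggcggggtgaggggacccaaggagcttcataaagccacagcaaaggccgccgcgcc
Hlx, chr1:184732494-184732743, minus strand: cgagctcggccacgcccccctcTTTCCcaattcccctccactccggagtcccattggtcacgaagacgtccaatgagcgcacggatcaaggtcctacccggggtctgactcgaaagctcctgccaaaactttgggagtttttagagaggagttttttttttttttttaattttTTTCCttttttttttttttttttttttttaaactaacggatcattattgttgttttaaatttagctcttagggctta
The Ifng window holds TTCNNNGAA starting 249 bases and GGAAA starting 172 bases before the start, with no overlap between them. Tbx21 has a single GGAAA match, 178 bases before the start on the other strand. In the Hlx window GGAAA matches at 228 and 77 bases before the start, both on the other strand and the second inside a run of T. Of 32851 promoter windows of this length, 55.6% hold GGAAA, 7.02% TTCNNNGAA, 12.3% GTGTGA, 14% TGTGGT and 6.75% TGANTCA, so these matches are a description of the letters only.

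A level below is log2 of the background-corrected signal minus the 75th percentile of its array, so 0 is the signal at that percentile. Differences are log2 with the limma standard error (SE), group values are means ± SD over 3 arrays, and a gene was called at a Benjamini-Hochberg adjusted p under 0.05 over all genes tested. Precision is limited by the 3 arrays per group. Each array had 24642 to 26218 probes well above background (59.8 to 63.7%), no probe was saturated, and arrays of a group correlated at 0.988 to 0.995. The genes that define the cultures followed the labels in part. Il9 was at 4.87, 5.59 and 6.11 on the stimulated Th9 arrays and at -2.43, -1.18 and -1.47 on the Th9 arrays. No Th2 or Treg array held Il9 well above background. Foxp3, the Treg factor, was at 0.78, 0.49 and 0.43 in Treg and not well above background on any Th2 array. It was lower but well above background in Th9 (-1.98, -2.07 and -1.90) and stimulated Th9. Gata3, the Th2 factor, ranged between 4.71 and 5.59 outside Treg and between 2.93 and 3.57 in Treg. It did not separate Th9 from Th2 (0.25 ± 0.16, adjusted p = 0.336 by limma). Il4 was at 5.05, 5.15 and 4.88 in Th2, 3.79, 3.91 and 4.18 in Th9, and -6.47, -6.46 and -5.08 in Treg. Cd3e and Cd4 were well above background on all 12 arrays, and so was Cd8a. Ncr1, which marks NK cells, was well above background on none.

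Stimulated array 3 stood apart from stimulated arrays 1 and 2 and is reported by itself throughout. The 9 markers of CD8 T cells, NK cells and innate-like T cells on the array (1 of them, Ncr1, below background everywhere) had a summed signal, in units of the array's 75th percentile, of 35.8, 30.9 and 7.53 on the 3 stimulated arrays, against 35.6 to 46.8 on the Th9 arrays. Cd8a lay at 2.47 and 2.29 on stimulated arrays 1 and 2 and at -2.23 on array 3, against 2.71, 2.42 and 2.16 in Th9. The 9 B cell markers summed to 2.16, 2.62 and 0.77 on the stimulated arrays, against 5.31 to 7.04 on the Th9 arrays. The median of 9 genes that T cell receptor signals induce was 3.87, 3.52 and 2.54 above the Th9 mean on arrays 1, 2 and 3. The median of all 17925 genes was 0.04, -0.01 and 0.05. The lower median on array 3 did not hold for each of the 9: Egr3 (4.34, 4.66 and 4.91) and Irf4 (0.58, 0.78 and 0.93) moved most there, and the others least. In bulk RNA, fewer cells of a type and less RNA per cell cannot be told apart. The arrays also lay on 3 slides, each scanned in a single run: stimulated array 3 shared a slide with the 3 Th9 arrays, stimulated arrays 1 and 2 with Treg arrays 2 and 3, and the 3 Th2 arrays with Treg array 1.

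After stimulation 7 of the 9 genes were called, with Ifng, Tbx21, Hlx and Il12rb1 higher and Eomes, Runx3 and Ifngr1 lower. Over all genes 63.7% were called in this comparison, 33.2% higher and 30.5% lower, with a median of 0.02. Between Th9 and Th2 cultures 3 of the 9 were called, Eomes higher and Il12rb1 and Hlx lower in Th9, where 17.0% of all genes were called, 7.76% higher and 9.25% lower, with a median of -0.03. Th9 cultures differed from Treg cultures in 6 members, with Runx3, Il12rb1, Il12rb2 and Hlx higher and Tbx21 and Ifngr1 lower, beside 64.0% of all genes (28.8% higher, 35.3% lower, median -0.11). Th2 and Treg cultures also differed in 6 members, with Runx3, Il12rb1 and Hlx higher and Tbx21, Eomes and Ifngr1 lower in Th2, beside 62.7% of all genes (29.3% higher, 33.5% lower, median -0.08). The last comparison shares its Treg arrays with the one before it. Except between Th9 and Th2, the members' share was near that of all genes. Between Th9 and Th2 it was larger, but it rests on 3 genes of a list chosen with earlier results known. These 2 cultures also shared no slide. The counts are therefore not read as particular to the program in any comparison, and the interest lies in the size and direction of each gene.

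**Figure D1:**
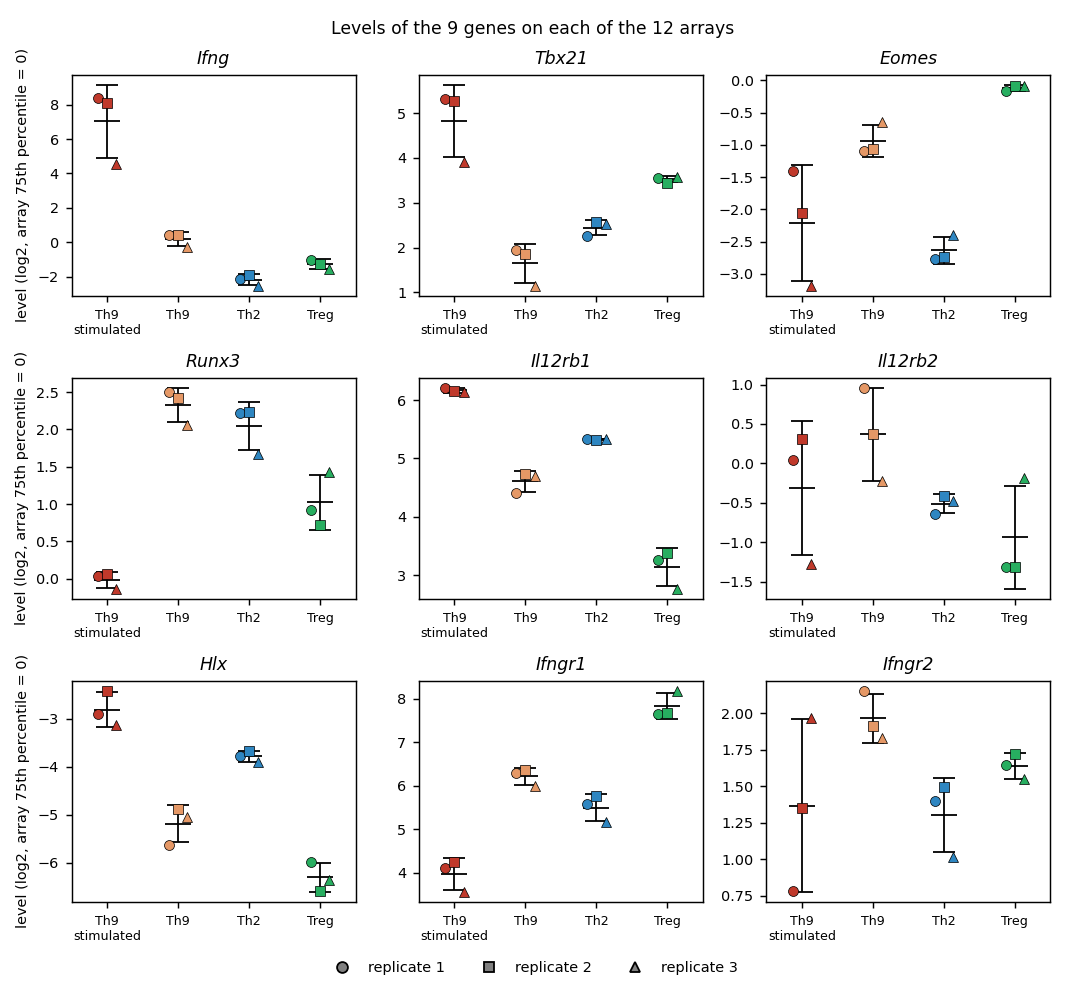
Level of each gene (y axis, log2 signal relative to the array's 75th percentile, a separate scale per gene) on the 12 arrays, by culture (x axis). Symbols are arrays by replicate number and black bars the mean ± SD of 3 arrays. Ifng is at 8.39, 8.12 and 4.56 on the stimulated Th9 arrays and at or below 0.45 on all others.

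Ifng, the signature cytokine, showed the widest range of the 9 genes. Its level was 8.39, 8.12 and 4.56 on stimulated Th9 arrays 1, 2 and 3, and 0.45, 0.42 and -0.27 on the Th9 arrays. On the Th2 arrays it was -2.10, -1.89 and -2.54, and on the Treg arrays -1.002, -1.24 and -1.55. The order was stimulated Th9, Th9, Treg, Th2, and the arrays of no group overlapped those of another. In each of the 4 groups array 3 had the lowest Ifng, by the widest margin among the stimulated arrays. All 12 arrays were well above background, so the transcript was measured in every culture, including those with antibody to IFN-γ, which acts on the protein.

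Ifng rose after stimulation by 6.82 ± 0.79 (SE; adjusted p = 2.24e-05 by limma, n = 3 each), on average 113-fold. Taken singly against the Th9 mean of 0.20, stimulated arrays 1 and 2 were 292-fold and 243-fold higher, and stimulated array 3 was 20.5-fold higher. Arrays 1 and 2 therefore exceeded array 3 by 13-fold, yet array 3 still lay above every Th9 array. Without stimulated array 3 the increase was 8.06 ± 0.27 (adjusted p = 8.83e-08). Array 3 is also the only stimulated array on the slide of the Th9 arrays, where the increase was 4.36. The summed CD8, NK and innate-like markers given above were lowest on this same array, and their part in the result was not tested. Cxcr3, the chemokine receptor that T-bet induces, was likewise lowest there (1.59, 1.38 and -0.17), whereas Il9 (4.87, 5.59 and 6.11) was highest on array 3.

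The spread behind these numbers lay between arrays and not between spots. A second Ifng probe, printed as 10 spots per array, had a coefficient of variation among its spots of 2.31 to 8.57%, and its median signal was 133647, 92940 and 8056 on the stimulated arrays, against 615, 450 and 290 on the Th9 arrays. It gave an increase of 7.005 ± 0.83 (adjusted p = 2.52e-05) and the same order of groups. In the array's mm8 annotation that probe lies at chr10:117848551-117848610 and the first at chr10:117848778-117848837, plus strand. On the same build the Tbx21 probe lies at chr11:96914193-96914252 on the minus strand, and those of Eomes, Il12rb1 and Ifngr1 at chr9:118333866-118333925, chr8:73750279-73750338 and chr10:19299533-19299592 on the plus strand.

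Resting Th9 cultures held more Ifng transcript than Th2 or Treg cultures on every array, but the joint fit did not call it. The difference was 2.38 ± 0.79 from Th2 (5.19-fold, adjusted p = 0.0655) and 1.46 ± 0.79 from Treg (2.76-fold, adjusted p = 0.13), and Th2 minus Treg was -0.91 ± 0.79 (adjusted p = 0.337). The SE of 0.79 is shared by the 4 groups and comes largely from the stimulated arrays, whose SD was 2.14, against 0.41 in Th9, 0.33 in Th2 and 0.28 in Treg. With only the 6 arrays of each pair fitted, the same differences had SEs of 0.25, 0.24 and 0.21, and all 3 were called (adjusted p = 0.00272, 0.00213 and 0.00987). Leaving out only stimulated array 3, a choice made after seeing the data, also brought all 3 under the threshold (adjusted p = 0.000221, 0.000458 and 0.00752). With replicate number as a block (same-numbered Th9 and Th2 arrays deviated together), Ifng was called higher in Th9 than in Th2 (2.38 ± 0.63, adjusted p = 0.0347). Over the alternatives run, the adjusted p of Th9 minus Th2 lay between 0.000221 and 0.158, that of Th9 minus Treg between 9.26e-05 and 0.241 and that of Th2 minus Treg between 0.00752 and 0.52, with the same direction in each.

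Tbx21, the gene of T-bet, also rose after stimulation. It was at 5.32, 5.27 and 3.91 on the stimulated Th9 arrays and at 1.94, 1.87 and 1.14 on the Th9 arrays. Th2 arrays had 2.25, 2.57 and 2.52, and Treg arrays 3.56, 3.45 and 3.58. No 2 groups overlapped, and resting Th9 cultures had the lowest level of the 4. The increase was 3.18 ± 0.34 (9.08-fold, adjusted p = 1.2e-05), 12.7-fold and 12.3-fold on stimulated arrays 1 and 2 and 4.78-fold on array 3. It was 3.65 ± 0.22 without array 3 and 2.26 within the shared slide.

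At rest the order of Tbx21 was unlike that of Ifng: Ifng was highest in Th9 among the resting cultures, where Tbx21 was lowest. Tbx21 was lower in Th9 than in Treg by a difference of -1.88 ± 0.34 (adjusted p = 0.000644), and lower in Th2 than in Treg by -1.08 ± 0.34 (adjusted p = 0.0172, and -1.11 within the slide of Th2 and Treg array 1), a call lost without Th2 array 1 (-0.98, adjusted p = 0.0553). Th9 minus Th2, at -0.80 ± 0.34, was not called (adjusted p = 0.136). It passed without stimulated array 3 (adjusted p = 0.0195, where its alternatives gave up to 0.662).

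Eomes, the other T-box factor, moved against Tbx21 after stimulation. Its level was -1.40, -2.05 and -3.19 on the stimulated Th9 arrays, and -1.10, -1.06 and -0.65 on the Th9 arrays. The Th2 arrays had -2.77, -2.73 and -2.39 and the Treg arrays -0.17, -0.09 and -0.08. Treg arrays were the highest and tightest, and the stimulated arrays spread across the Th2 range. Eomes fell by 1.28 on the log2 scale after stimulation (SE 0.35, adjusted p = 0.00797), to 4.76-fold below the Th9 mean on array 3 but 1.38-fold and 2.16-fold below it on arrays 1 and 2. Without array 3 the difference was -0.79 ± 0.21 (adjusted p = 0.00797), and within the shared slide it was -2.25. Eomes followed the CD8, NK and innate-like markers in being lowest on stimulated array 3, and their part was not tested.

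Among resting cultures Eomes was higher in Th9 than in Th2 (1.70 ± 0.35, 3.24-fold, adjusted p = 0.00901) and lower in Th2 than in Treg (-2.52 ± 0.35, adjusted p = 9.9e-05). Th9 minus Treg was -0.82 ± 0.35 and not called (adjusted p = 0.06; -0.68 with normexp background, adjusted p = 0.0138), though the groups did not overlap. The 9 CD8, NK and innate-like markers summed to 35.6 to 46.8 in Th9, 19.0 to 25.7 in Th2 and 23.6 to 44.5 in Treg.

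Runx3, which partners T-bet at the Ifng locus, fell after stimulation on all 3 arrays alike. The stimulated Th9 arrays had 0.04, 0.06 and -0.14, against 2.50, 2.42 and 2.06 on the Th9 arrays. Th2 arrays were at 2.22, 2.23 and 1.67, overlapping Th9, and Treg arrays at 0.92, 0.71 and 1.43. The difference after stimulation was -2.34 ± 0.21 (5.07-fold lower, adjusted p = 3.33e-06), and its second probe gave -2.32 ± 0.26. Array 3, at 5.53-fold below the Th9 mean, did not stand apart from arrays 1 and 2, at 4.89-fold and 4.82-fold, so Runx3 did not share the pattern of Ifng over the stimulated arrays. Runx3 was higher than in Treg in both Th9 (1.31 ± 0.21, adjusted p = 0.000288) and Th2 cultures (1.02 ± 0.21, adjusted p = 0.00155, and 1.12 within a slide), and Th9 minus Th2 was 0.29 ± 0.21 (adjusted p = 0.384).

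Hlx, a homeobox partner of T-bet, was dim but rose. It was at -2.89, -2.41 and -3.13 on the stimulated Th9 arrays and at -5.62, -4.88 and -5.05 on the Th9 arrays. The Th2 arrays had -3.77, -3.67 and -3.90, and no Treg array was well above background (-5.98, -6.57 and -6.36). Stimulated Th9, Th2 and Th9 followed each other without overlap. The increase after stimulation was 2.37 ± 0.23 (5.16-fold, adjusted p = 6.68e-06), and 4.88-fold, 6.81-fold and 4.13-fold on the single arrays. Hlx was lower in Th9 than in Th2 (-1.40 ± 0.23, 2.64-fold, adjusted p = 0.003). Against Treg, where only a bound can be given, the bounds were at least 1.78-fold higher in Th9 (adjusted p = 0.00165) and at least 4.69-fold higher in Th2 (adjusted p = 5.15e-06). These sizes depend on the background method for this dim probe, and the bounds are those of the scanner software's own background. With normexp background correction the increase after stimulation was 1.12 ± 0.14 (adjusted p = 7.13e-06), Th9 minus Th2 -0.57 ± 0.14 (adjusted p = 0.0105), Th2 minus Treg 0.53 ± 0.14 (adjusted p = 0.0045) and Th9 minus Treg -0.04 ± 0.14 (adjusted p = 0.803), the last with the opposite sign.

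The 2 chains of the IL-12 receptor did not move together. Il12rb1, the chain shared with the IL-23 receptor, was at 6.21, 6.16 and 6.13 on the stimulated Th9 arrays and 4.41, 4.73 and 4.70 on the Th9 arrays. Th2 arrays had 5.33, 5.32 and 5.33, and Treg arrays 3.25, 3.39 and 2.77. Stimulated Th9, Th2, Th9 and Treg arrays followed each other without overlap, with replicates close together. Il12rb1 rose by 1.55 ± 0.15 after stimulation (2.94-fold, adjusted p = 6.32e-06), with 3.03-fold, 2.92-fold and 2.86-fold on arrays 1, 2 and 3 and 1.52 within the slide. Th9 was below Th2 (-0.71 ± 0.15, adjusted p = 0.0107) and above Treg (1.48 ± 0.15, adjusted p = 1.15e-05), and Th2 was above Treg (2.19 ± 0.15, adjusted p = 6.55e-07, and 2.07 within a slide).

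Il12rb2, the chain that confers STAT4 signalling and is normally kept by Th1 cells, showed no such rise. It was at 0.04, 0.31 and -1.28 on the stimulated Th9 arrays and 0.96, 0.37 and -0.22 on the Th9 arrays, so the groups overlapped. Th2 arrays had -0.64, -0.41 and -0.48, and Treg arrays -1.32, -1.32 and -0.18. The difference after stimulation was -0.68 ± 0.44 (adjusted p = 0.206), -0.20 ± 0.39 without stimulated array 3 (adjusted p = 0.683) and -1.65 on array 3 within the slide (adjusted p = 0.0198 with slide as a block). Il12rb2 was higher in Th9 than in Treg (1.31 ± 0.44, adjusted p = 0.0242) with overlapping arrays, a call lost without Th9 array 1, Th9 array 2, Treg array 1 or Treg array 2 (adjusted p between 0.0548 and 0.0934, with differences of 1.01 to 1.31). Th9 minus Th2 was 0.88 ± 0.44 (adjusted p = 0.206), and Th2 minus Treg 0.43 ± 0.44 (adjusted p = 0.421).

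**Figure D2:**
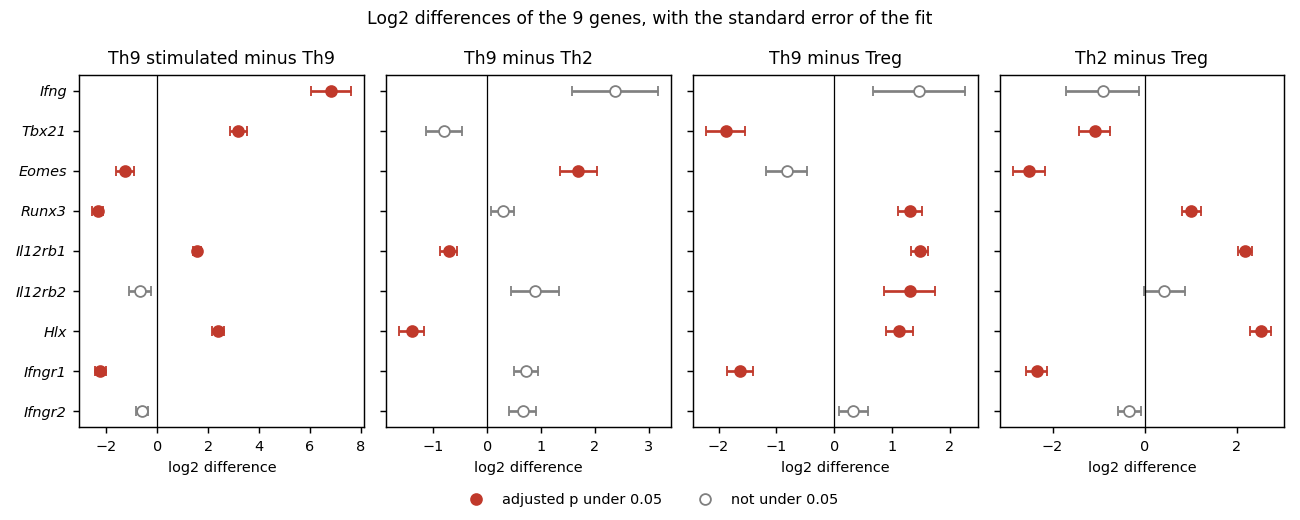
Log2 difference of each gene in the 4 comparisons (x axis, points with the SE of the fit), filled where the adjusted p is under 0.05. After stimulation Ifng has the largest increase, 6.82, and Runx3 the largest decrease, -2.34; the wide Ifng bars in all 4 panels carry the same SE of 0.79.

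Of the IFN-γ receptor chains, Ifngr1 fell after stimulation and Ifngr2 was called by 1 of its 2 probes. Ifngr1, the ligand-binding chain, was at 4.12, 4.25 and 3.56 on the stimulated Th9 arrays and 6.29, 6.37 and 6.00 on the Th9 arrays. On the Th2 arrays it was 5.57, 5.76 and 5.16, and on the Treg arrays 7.65, 7.68 and 8.19. Treg, Th9, Th2 and stimulated Th9 arrays followed each other without overlap. After stimulation Ifngr1 fell by 2.24 on the log2 scale (SE 0.23, 4.73-fold, adjusted p = 7.77e-06), 6.32-fold on array 3 and 4.29-fold and 3.90-fold on arrays 1 and 2. It was lower than in Treg in Th9 (-1.62 ± 0.23, adjusted p = 0.000103) and in Th2 (-2.34 ± 0.23, adjusted p = 6.8e-06, and -2.16 within a slide). Th9 minus Th2 was 0.72 ± 0.23 and just missed the threshold (adjusted p = 0.0529; 0.0301 without stimulated array 3, and 0.0134 to 0.346 over the alternatives).

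Ifngr2, the signalling chain, gave smaller differences that depended on the probe. The probe with the higher mean had 0.79, 1.35 and 1.96 on the stimulated Th9 arrays, against 2.15, 1.91 and 1.83 on the Th9 arrays. Th2 arrays had 1.40, 1.495 and 1.02, and Treg arrays 1.65, 1.72 and 1.55. Stimulated array 3 lay within the Th9 range while arrays 1 and 2 lay below it, and the difference of -0.60 ± 0.25 was not called (adjusted p = 0.0559). It was -0.90 ± 0.20 without array 3 (adjusted p = 0.00267) and -0.00 on array 3 within the slide. Th9 minus Th2 was 0.66 ± 0.25 (adjusted p = 0.0956), and Th9 minus Treg 0.33 ± 0.25 (adjusted p = 0.27). The second probe was called in all 3 of these comparisons, at -0.98 ± 0.23 after stimulation (adjusted p = 0.00293), 0.76 ± 0.23 against Th2 (adjusted p = 0.0447) and 0.90 ± 0.23 against Treg (adjusted p = 0.00516). Between Th2 and Treg the probes had opposite signs and neither was called (-0.33 ± 0.25 and 0.14 ± 0.23).

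**Figure D3:**
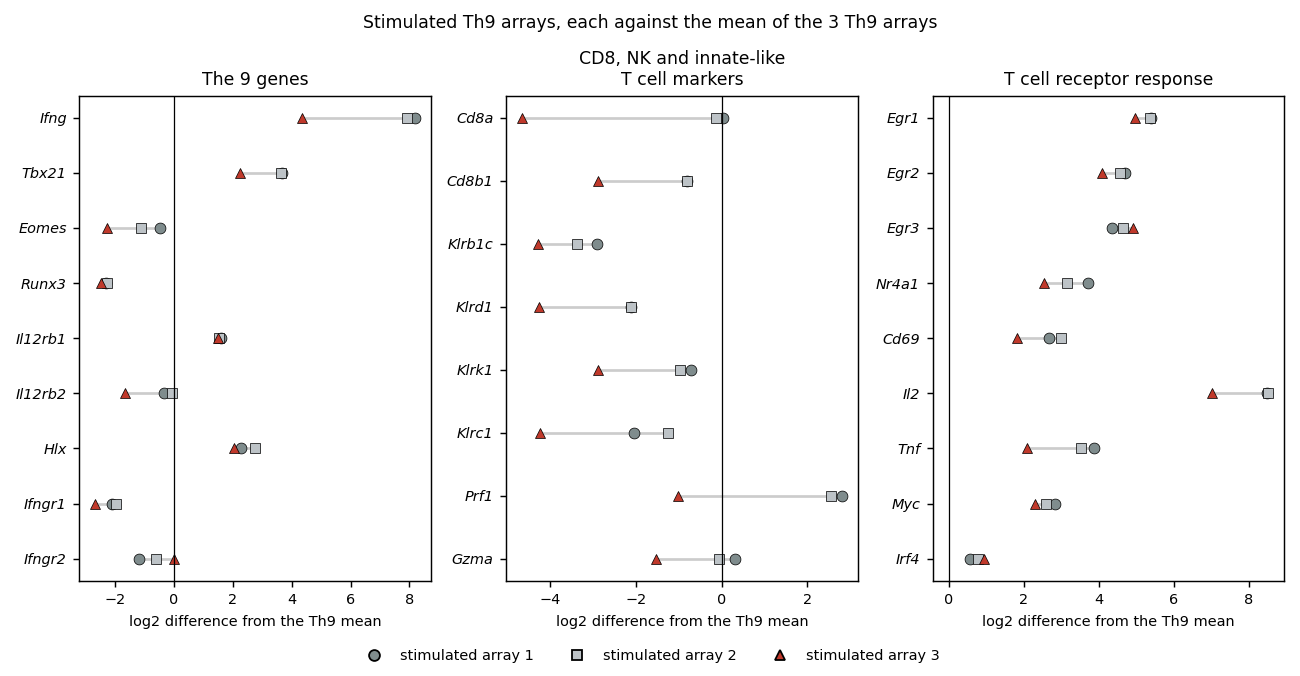
Log2 difference of each stimulated Th9 array from the mean of the 3 Th9 arrays (x axis) for the 9 genes, 8 tested CD8, NK and innate-like T cell markers and 9 tested T cell receptor response genes. Stimulated array 3 (triangles) is 3.70 below the mean of arrays 1 and 2 for Ifng, lies left of both others for all 8 markers, and differs little for Runx3 and Il12rb1.

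Set side by side, the stimulated arrays split the members. Array 3 lay below the mean of arrays 1 and 2 by 3.70 for Ifng, 1.39 for Tbx21, 1.46 for Eomes and 1.45 for Il12rb2. For Ifngr1 and Hlx it lay lower by 0.63 and 0.48, for Runx3 by 0.19 and for Il12rb1 by 0.06, and for Ifngr2 it lay 0.90 higher. The direction of stimulation was nonetheless the same on all 3 arrays for Ifng, Tbx21, Hlx and Il12rb1, each array above every Th9 array. The same held for Runx3, Ifngr1 and Eomes, each array below every Th9 array. The share of all genes that separate in this way was not counted. As 63.7% of all genes were called in this comparison, the separation is not read as particular to the members.

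No slide held Th9 arrays together with Th2 or Treg arrays, so with slide as a block those differences are reached only through stimulated array 3. By that route Th9 minus Th2 became 6.47 ± 0.56 for Ifng (adjusted p = 0.00268) and 3.08 ± 0.46 for Eomes (adjusted p = 0.0219). Tbx21 came to 0.64, Il12rb1 to -0.48, Hlx to -0.43, Ifngr1 to 1.07, Ifngr2 to -0.22, Il12rb2 to 1.77 and Runx3 to 0.32, none of them called. Th9 minus Treg became 5.29 ± 0.44 for Ifng (adjusted p = 9.26e-05), -0.47 ± 0.38 for Tbx21 (adjusted p = 0.362) and 0.61 ± 0.37 for Eomes (adjusted p = 0.226). Runx3 stayed higher in Th9 by 1.44, Il12rb1 by 1.59, Il12rb2 by 2.57 and Hlx by 1.76, Ifngr1 stayed lower at -1.09, all called, and Ifngr2 came to -0.56, not called. Slide and culture can therefore be separated in these 2 comparisons only as far as stimulated array 3 is like the other stimulated arrays.

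A list of 12 genes held carriers of the IL-12, IL-18, IL-27 and IFN-γ signals and their inhibitors Socs1, Socs3 and Ptpn2. Of the 12, 5 fell and 0 rose after stimulation by limma, with a median of -0.35, beside 30.5% lower and 33.2% higher of all genes. At an unadjusted p under 0.05 there were 7 lower and 0 higher, and without stimulated array 3 again 5 were called lower and 0 higher. Stat4, which transmits IL-12, had 1.21, 1.097 and 0.08 on the stimulated Th9 arrays against 3.43, 2.98 and 2.73 on the Th9 arrays (-2.25 ± 0.30, adjusted p = 5.81e-05). Jak1, a kinase of the IFN-γ receptor, fell by 1.20 on the log2 scale and the IL-27 receptor chain Il27ra by 0.74. The other 2 that fell were inhibitors, Socs3 by 0.54 and Ptpn2 by 0.31. Between Th9 and Th2, 2 were higher and 1 lower in Th9, with a median of 0.13, beside 7.76% and 9.25% of all genes. These were Il6st (0.82 ± 0.13), Jak2 (0.71 ± 0.15) and Socs3 (-0.87 ± 0.20).

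Against Treg, 3 of the same 12 genes were higher and 8 lower in Th9 (median -1.002; 28.8% higher and 35.3% lower of all genes). In Th2, 4 were higher and 8 lower (median -1.10; 29.3% and 33.5% of all genes). Il18r1, a chain of the IL-18 receptor, had -2.78, -2.78 and -2.12 in Th9 and -2.82, -2.98 and -2.88 in Th2, against 2.26, 2.45 and 3.32 in Treg, a difference of -5.24 ± 0.30 and -5.57 ± 0.30 (adjusted p = 1.51e-07 and 1.01e-07). Its partner chain Il18rap differed from Treg by -2.36 in Th9 and -2.34 in Th2. The genes higher in Th9 were Jak2 (1.77 ± 0.15) and the inhibitors Socs1 and Ptpn2, and those higher in Th2 were the same with the inhibitor Socs3. Il6st was lower in Th2 (-1.99 ± 0.13).

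Of 16 tested effector and surface genes of Th1 cells, 10 were higher after stimulation and 1, Selplg (-1.97 ± 0.17), lower, with a median of 1.41, beside 33.2% higher and 30.5% lower of all genes. Without stimulated array 3 these counts were 12 and 1, with a median of 1.77. The chemokine Ccl3 had 6.81, 6.30 and 3.28 on the stimulated Th9 arrays and was not well above background on any Th9 array, a rise of at least 3034-fold (adjusted p = 2.39e-07). Ccl4 rose by 9.51 ± 0.66, Il2, at 1.09, 1.12 and -0.37, by at least 105.2-fold, and Tnf, at 3.54, 3.19 and 1.77 against -0.39, -0.22 and -0.39, by 3.16 ± 0.38. Ccl3, Ccl4, Il2 and Tnf were all lowest on stimulated array 3, as Ifng was. Cxcr3 was called higher over the 3 stimulated arrays (1.09 ± 0.40, adjusted p = 0.0318), with arrays overlapping those of Th9, since array 3 was 0.01 below the Th9 mean.

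Genes that T cell receptor signals induce rose throughout: 9 of 9 were called higher after stimulation, with or without stimulated array 3 (median 3.16 and 3.70), led by Il2, with the early growth response factors Egr1 (5.24), Egr3 (4.64) and Egr2 (4.45) next. Of the 8 tested markers of CD8 T cells, NK cells and innate-like T cells, 5 were lower and 0 higher after stimulation by limma, and the same numbers passed at an unadjusted p under 0.05. Those called were the NK receptor genes Klrb1c (-3.52), Klrd1 (-2.82), Klrc1 (-2.51) and Klrk1 (-1.51) and the CD8 chain gene Cd8b1 (-1.50 ± 0.46, adjusted p = 0.0139). The other CD8 chain gene, Cd8a, was at -1.59 ± 0.96 and not called (adjusted p = 0.175). The killer genes Prf1 and Gzma did not fall alike on the 3 arrays. Prf1 differed from the Th9 mean by 2.81, 2.55 and -1.02 on stimulated arrays 1, 2 and 3. Gzma differed by 0.32, -0.06 and -1.53. Neither was called (adjusted p = 0.143 and 0.5 by limma). Without stimulated array 3 the count was 4 lower and 1 higher, and the median -0.82 beside -1.55 with it. Of 9 B cell markers 6 were lower after stimulation, and without array 3 5 were lower and 1 higher. Over all 17925 genes 33.2% were called higher and 30.5% lower after stimulation. Without array 3 these were 5805 genes higher and 5436 lower.

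At rest the list of Th1 effector and surface genes ran higher in Th2 than in Th9. Of its 16 tested genes 1 was higher and 7 lower in Th9, with a median of -0.77, beside 7.76% and 9.25% of all genes. Fasl was the one higher in Th9 (2.10 ± 0.37). Ccl4 (-2.33 ± 0.66) and Cxcr3 (-1.48 ± 0.40) were lower in Th9, and Ccl3 was at least 3.39-fold lower. Against Treg 6 of the 16 were higher and 6 lower in Th9 (median -0.10), near the 28.8% and 35.3% of all genes, and 8 higher and 6 lower in Th2 (median 0.56), beside 29.3% and 33.5% of all genes. Cxcr3 was highest in Treg, at 4.82, 5.09 and 5.21, and was lower by -5.20 ± 0.40 in Th9 and -3.73 ± 0.40 in Th2. Ccl4 and Ccl5 were also lower in Th9 than in Treg (-3.66 ± 0.66 and -3.49 ± 0.19), and Ccl3 at least 36.7-fold lower. Granzyme B (Gzmb, 4.02 ± 0.54) and Id2 (3.67 ± 0.12) were higher in Th2 than in Treg, while Ccl3 was lower (-3.44 ± 0.78).

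**Figure D4:**
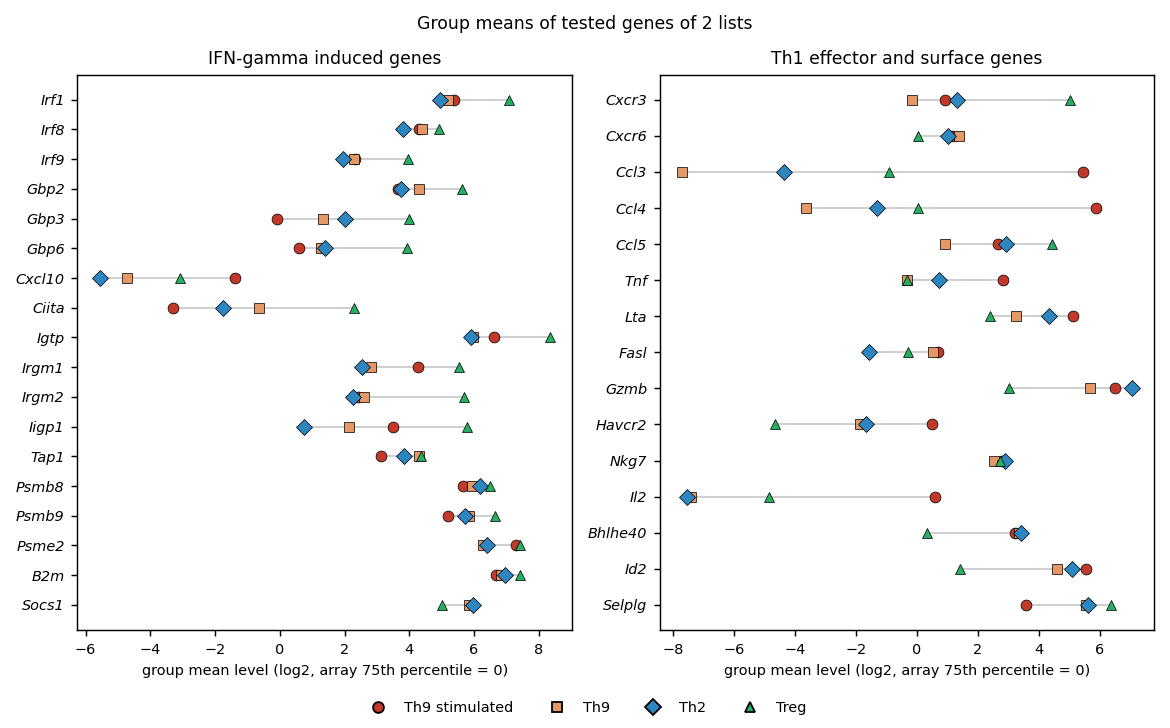
Group mean level (x axis, log2 signal relative to the array's 75th percentile) of 18 of the 19 tested IFN-γ induced genes and 15 of the 16 tested Th1 effector and surface genes, 1 row per gene, with symbols for the 4 cultures. Rows are read across groups, not against each other. Treg (triangles) lies above Th9 and Th2 for Irf1, Ciita, Igtp, Irgm1, Irgm2 and Iigp1, whereas Ccl3, Ccl4, Tnf and Il2 are highest in stimulated Th9.

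Of 19 tested genes that IFN-γ induces, 4 were higher and 6 lower after stimulation, with a median of -0.17, beside 33.2% higher and 30.5% lower of all genes, and without stimulated array 3 these were 5 and 5, with a median of 0.03. Cxcl10, a T cell attractant, was at -1.07, -0.81 and -2.29 on the stimulated Th9 arrays against -3.91, -5.16 and -5.11 on the Th9 arrays (3.34 ± 0.47, adjusted p = 9.87e-05), and Irgm1 rose by 1.46 ± 0.25. Ciita, the master factor of MHC class II, and Gbp3, a guanylate-binding protein, were lower (-2.66 ± 0.41 and -1.43 ± 0.32). Irf1, an early target of IFN-γ, was at 5.31, 5.69 and 5.15 against 5.54, 5.49 and 4.60 and was not called (0.18 ± 0.23, adjusted p = 0.526).

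Between Th9 and Th2 cultures, both of which held antibody to IFN-γ, limma called 0 of the 19, beside 7.76% higher and 9.25% lower of all genes. At an unadjusted p under 0.05, 4 were higher and 1 lower in Th9, and the median was 0.30. Without stimulated array 3 in the fit 1 was called, higher in Th9. Against Treg, 16 of 19 were lower in Th9 (median -1.67) and 17 of 19 lower in Th2 (median -2.02), beside 35.3% and 33.5% of all genes, and Socs1 was the single gene higher in each. The immunity-related GTPase gene Iigp1 was at 3.10, 2.75 and 0.61 in Th9 and 0.12, 1.06 and 1.11 in Th2, against 5.58, 5.80 and 5.92 in Treg (-3.62 ± 0.63 and -5.01 ± 0.63, adjusted p = 0.000491 and 4.78e-05). Irgm2 differed by -3.07 ± 0.21 in Th9 and -3.41 ± 0.21 in Th2, Irgm1 by -2.70 and -3.00, Ciita by -2.93 and -4.05 and Irf1 by -1.87 and -2.14. Among the 3 cultures without restimulation, Treg thus had an Ifng level between those of Th9 and Th2 and the highest levels of Iigp1, Irgm2, Irgm1, Ciita, Irf1, Tbx21 and Ifngr1.

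Antibody to IFN-γ, present in the Th9 and Th2 cultures, cannot be told apart here from the other differences between those cultures and Treg. B cell markers also moved with this result: 9 of 9 were well above background on all Th9 arrays, 7 on all Th2 arrays and 9 on all Treg arrays, and their summed signal was 5.31 to 7.04 in Th9 and 2.62 to 4.53 in Th2, against 57.0 to 78.1 in Treg. Called lower were 8 of 9 in Th9 and 9 of 9 in Th2, beside 35.3% and 33.5% of all genes. Among them was Ms4a1, at -1.10, -0.66 and -0.28 in Th9 against 4.73, 4.71 and 4.25 in Treg. Lyz2 and Itgam, both myeloid genes, were well above background on the Treg arrays alone, and at least 91.9-fold and 2.95-fold lower in Th9. The 10 myeloid and dendritic markers together summed to 2.01 to 2.98 in Th9, 2.37 to 2.90 in Th2 and 1.51 to 2.82 in Treg. Adgre1, the brightest of them in Th9 (0.54, 0.61 and 1.35) and in Th2, was lower in Treg (-1.83, -2.16 and -2.12). The 9 pan T cell markers summed to 200 to 218 in Th9 and 222 to 242 in Th2, against 393 to 504 in Treg. In Th2 minus Treg 2 myeloid markers were higher and 6 lower, and in Th9 minus Treg 2 were higher and 5 lower, of 9 tested. Over all genes 29.3% were higher and 33.5% lower in Th2 minus Treg, and 28.8% and 35.3% in Th9 minus Treg. The part of these cells in the levels of Tbx21, Ifngr1 or the IFN-γ induced genes was not tested.

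Genes with patterns most like those of 4 members were taken by the smallest root mean square difference over the 12 arrays after centring each gene, among 8940 genes whose group means spanned at least 1 log2 unit. For Ifng these were Crabp2, Mst1r, Olr1 and Ccl1, at 1.21 to 1.39 log2 units beside its group span of 9.20, so none tracked it closely. The dimmest level called well above background was -6.28 to -5.78, by array. Crabp2 lay below it in resting cultures (means of -8.03 in Th9, -7.92 in Th2 and -7.86 in Treg), and so did Mst1r. Their likeness at rest is thus one of signals at the floor. For Tbx21 the nearest was Slamf8, at 0.29, followed by Nfkbid, Bcl2a1b and Gzmm at 0.40 to 0.42. The Th9 mean of Slamf8, -6.64, also lay below that floor. Il12rb2 was nearest to Gpr160, Sp7, Kcnk6 and Ints12 (0.34 to 0.43) and Hlx to Ybx3, Fnip2, Dctd and Pomgnt2 (0.29 to 0.36). No member was among the nearest genes of another.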

How the data were processed

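Cy3-labelled RNA (0.5 µg of total RNA amplified, per the labels) was hybridised to 12 Agilent 1-colour arrays. The scanner intensity values deposited by the authors come from Agilent Feature Extraction (version 10.5.1.1 in the file headers), which subtracted the background and detrended each array and did not scale arrays to each other. The log2 values that the authors deposited for all arrays together look quantile normalized from their equal quartiles, and the tool behind them is not given in the sources used here.

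From the intensity values, control spots and 60 to 94 flagged outlier spots per array were left out, 41174 probes were formed from 43379 spots, and log2 minus the array's 75th percentile was taken. A gene was represented by its kept probe of highest mean, and probe names were updated through a GRCm38.p6 gene table. All 12 arrays entered a joint limma 3.58.1 fit in R 4.3.3 (data.table version 1.17.8, jsonlite 2.0.0) with a mean per group, 8 residual and 2.51 prior degrees of freedom. Promoter windows were searched with Python 3.11.15. The procedure was tested on simulated data. Some genes of the lists count toward the totals but are not reported by name. For a probe below background on all arrays of a group, the fold is a bound against the dimmest signal that the scanner software still called well above background.

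Equal replicate numbers were checked by correlating deviations from the group means: 0.201, 0.185 and 0.412 between Th9 and Th2, all over 0.1, so these arrays count as paired by that check, not by the labels. The members, lists and named genes were chosen with earlier results of these data known. Of each other list, the called members of largest change are named, with some genes named whatever their result. Of 99 genes in the other lists 96 were on the array and 91 tested. Alternatives changed background correction, normalization, filter, probe choice, arrays fitted, slide and replicate block, and each array was left out in turn.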

Additional observations from a re-analysis of the deposited data

How the results depend on the processing

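With 3 arrays per group and signal well above background for all members outside Hlx in Treg, precision is limited by the number of arrays. The count of called members was 7 after stimulation, 3 for Th9 against Th2, 6 for Th9 against Treg and 6 for Th2 against Treg. Leaving out each array of a comparison gave 7 to 8, 3 to 3, 5 to 6 and 5 to 6 members. Only Th9 against Th2 moved beyond 1.5 times: 5 members with normexp background (3 higher, 2 lower), 6 with only the 6 arrays compared (4 higher, 2 lower), and 7 without stimulated array 3 (4 higher, 3 lower), an alternative chosen after seeing the data, in which fewer arrays set the shared spread. Slide as a block left 2 members, Ifng and Eomes. Of all 17924 genes tested, normexp background called 1536 higher and 2301 lower in Th9 against Th2. Only the 6 arrays compared gave 1329 and 1503, and leaving out stimulated array 3 gave 1544 and 1823, beside 1391 and 1658 in the main fit.

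With the replicate block, fitted over all 12 arrays, the counts were 7, 4, 6 and 6, Ifng in Th9 against Th2 being the only member whose call changed. Over all genes the block gave 1402 higher and 1683 lower in Th9 against Th2, beside 1391 and 1658. Numbers did not pair the other groups (lowest correlations 0.0948 after stimulation, 0.0479 for Th9 against Treg and -0.00717 for Th2 against Treg).

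Of the members' values, only Hlx in Th9 minus Treg changed the direction of a call, at -0.041 with normexp (adjusted p = 0.803, where all alternatives spanned 0.00066 to 0.803); the cause was not tested. Of the other alternatives for single members 597 kept direction and side of the threshold, 29 brought a value under it, 8 lost a call and 4, all with slide as a block, turned an uncalled value. Over all genes, Th9 against Th2 fell to 188 higher and 129 lower with slide as a block, and to 849 higher and 969 lower without Th9 array 2. The authors' deposited log2 table changed the calls of 2 members, Ifngr2 after stimulation (-0.72, adjusted p = 0.0231) and Ifngr1 in Th9 minus Th2 (0.75, adjusted p = 0.0145), both now called.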
